A study of Mus musculus with 8 samples.

Results

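The transcripts of 10 endothelial genes were examined in the colon of hematopoietic chimeric mice. Of these, 7 are used as genes of blood vessel endothelium (Pecam1, Cdh5, Kdr, Tie1, Tek, Emcn and Plvap) and 3 as genes of lymphatic endothelium (Prox1, Lyve1 and Flt4). They were listed by name, with no threshold on their values but with earlier results of these data known, and they are 10 of the 26008 genes in the table of normalized counts. All 10 were above the minimum mean normalized count of 10 that defined the 19127 genes tested. The biopsies came from 8 male C57BL/6JRj mice, 1 library per mouse. Wild-type recipients were lethally irradiated at 7 weeks of age and received bone marrow from donors aged 9 to 11 weeks, either penk-/- or wild-type littermates (penk+/+), with 4 chimeras per genotype. Penk encodes proenkephalin, the precursor of the opioid peptides called enkephalins. The colon was examined 18 weeks after engraftment. The comparison addresses how the colonic transcriptome differs when graft-derived cells cannot make enkephalins.

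The inner lining of vessels is a layer of endothelial cells joined by adhesion molecules, VE-cadherin (Cdh5) among them. Blood vessel growth and permeability are controlled by vascular endothelial growth factors (VEGF) that bind receptor tyrosine kinases, and vessel stability by angiopoietins that bind Tie2 (Tek). In the gut, blood capillaries below the epithelium take up nutrients and recruit leukocytes, while lymphatic vessels drain fluid, fat and migrating immune cells and depend on the transcription factor Prox1 and on VEGF-C signalling through VEGFR3 (Flt4). None of the 10 genes is restricted to endothelium in the whole body: Pecam1 is also on platelets and many leukocytes, Lyve1 on some tissue macrophages, and Prox1 in some epithelial endocrine cells. Both genotypes of chimera carried an irradiated wild-type host and a graft, and the deletion concerns only cells derived from the graft. The origin of the endothelium of these mice was not measured here. Nor was the share of lymphatic endothelium in the transcripts of the 7 blood genes.

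The libraries held 33.1 M to 50.7 M reads, as recovered from the smallest steps between the normalized values of each library. Penk had 453 to 616 normalized counts in penk-/- and 473 to 636 in penk+/+ chimeras, a log2 fold change of -0.03 (limma, adjusted p = 0.957), so that whole-biopsy Penk gave no check of the genotype labels. A pair of libraries stood apart from the others: the 3 genes of male accessory glands, Pbsn, Tgm4 and Msmb, had a summed level of 209863 normalized counts in penk-/- 3 and 217825 in penk+/+ 4, against 54 in the lowest library, penk+/+ 3. Pbsn alone had 13425 normalized counts in penk+/+ 1, 7638 in penk-/- 2, 4803 in penk-/- 4 and 2398 in penk+/+ 2. It was at 0 in penk-/- 1 and penk+/+ 3. Results are also given without penk-/- 3 and penk+/+ 4, a step that does not remove such counts from the other libraries. The tissue label was checked against markers: the 6 epithelial genes summed to 267562 to 371917 normalized counts in penk-/- and 341794 to 403905 in penk+/+ libraries, and the 6 smooth muscle genes to 118626 to 199637 and 126878 to 197686. The 7 blood endothelial genes summed to 4233 to 5992 in penk-/- and 3642 to 5938 in penk+/+ libraries, the 3 lymphatic genes to 2347 to 3149 and 2118 to 3099, and none of the 10 was at 0 in any library. In bulk tissue, fewer cells of a type and less RNA per cell cannot be told apart.

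Before the values, the promoters of members are shown because factors of the ETS family, which bind sequences with a GGAA core, are well known regulators of endothelial genes. The 5-letter form AGGAA was searched, and GGAA after another letter was not counted. RefSeq promoters of build GRCm38.p6 were matched for 6 of the 10 genes (Prox1, Emcn, Tek, Tie1, Kdr and Flt4), and the 150 bases upstream of each start were searched on both strands for it, where its reverse complement reads TTCCT. Of 32851 promoters, 42.1% held at least 1 match in that window. Emcn had 3 matches, Tek 2, each of the 2 Prox1 promoters 1, and Tie1, Kdr and Flt4 had 0. The sequences of 5 of them follow, 5′ to 3′ along the strand of the gene, with each match in capitals.
Emcn, chr3:137340928-137341077, plus strand: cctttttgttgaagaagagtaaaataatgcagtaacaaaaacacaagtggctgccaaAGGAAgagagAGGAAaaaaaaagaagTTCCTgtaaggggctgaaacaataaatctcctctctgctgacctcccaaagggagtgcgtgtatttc
Tek, chr4:94739139-94739288, plus strand: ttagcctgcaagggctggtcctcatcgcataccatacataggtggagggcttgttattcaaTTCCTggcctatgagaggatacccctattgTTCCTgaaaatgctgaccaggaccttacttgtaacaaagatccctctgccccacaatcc
Tie1, chr4:118489850-118489999, minus strand: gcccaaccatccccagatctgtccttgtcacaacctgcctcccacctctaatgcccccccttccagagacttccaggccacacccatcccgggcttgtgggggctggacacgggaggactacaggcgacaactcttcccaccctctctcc
Kdr, chr5:75978456-75978605, minus strand: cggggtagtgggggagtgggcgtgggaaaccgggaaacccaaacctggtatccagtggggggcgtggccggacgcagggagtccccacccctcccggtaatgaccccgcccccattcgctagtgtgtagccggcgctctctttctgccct
Flt4, chr11:49609529-49609678, plus strand: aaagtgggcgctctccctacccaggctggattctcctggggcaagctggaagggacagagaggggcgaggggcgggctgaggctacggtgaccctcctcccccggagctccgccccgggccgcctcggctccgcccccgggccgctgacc
A match is a description of letters, and its absence says only that these 5 letters are not in the window. Of the genes with a match, Emcn had the largest fitted genotype difference of the 10 members and Tek and Prox1 the smallest, as given next. A relation between matches and expression was not tested.

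No difference between penk-/- and penk+/+ chimeras was detected for any of the 10 endothelial genes. With limma and an adjustment over all genes, 0 of 10 passed an adjusted p of 0.05, and 0 of 10 had an unadjusted p under 0.05, against 0.0% and 9.63% of the 19127 genes tested. Not one of them had groups that did not overlap (5.63% of all genes), and none had a fold change above 1 on the log2 scale in either direction (0.622% of all genes). The 95% intervals of the 10 genes together ran from 0.724-fold (the lower bound of Tek) to 1.62-fold (the upper bound of Emcn). All 7 blood genes had fitted values above 0, that is, higher in penk-/-, as had 2 of the 3 lymphatic genes, against 51.1% of all genes. Since the 7 genes varied together across mice, as described further on, their common sign is not 7 separate observations. The median log2 fold change was 0.15 for the blood genes and 0.06 for the lymphatic genes, and 0.0051 for all genes tested, with quartiles of -0.12 and 0.12. Without penk+/+ 1 the median of the blood genes was 0.04 and that of the lymphatic genes -0.01, and without the 2 libraries with most Pbsn they were 0.06 and -0.08.

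**Figure D1:**
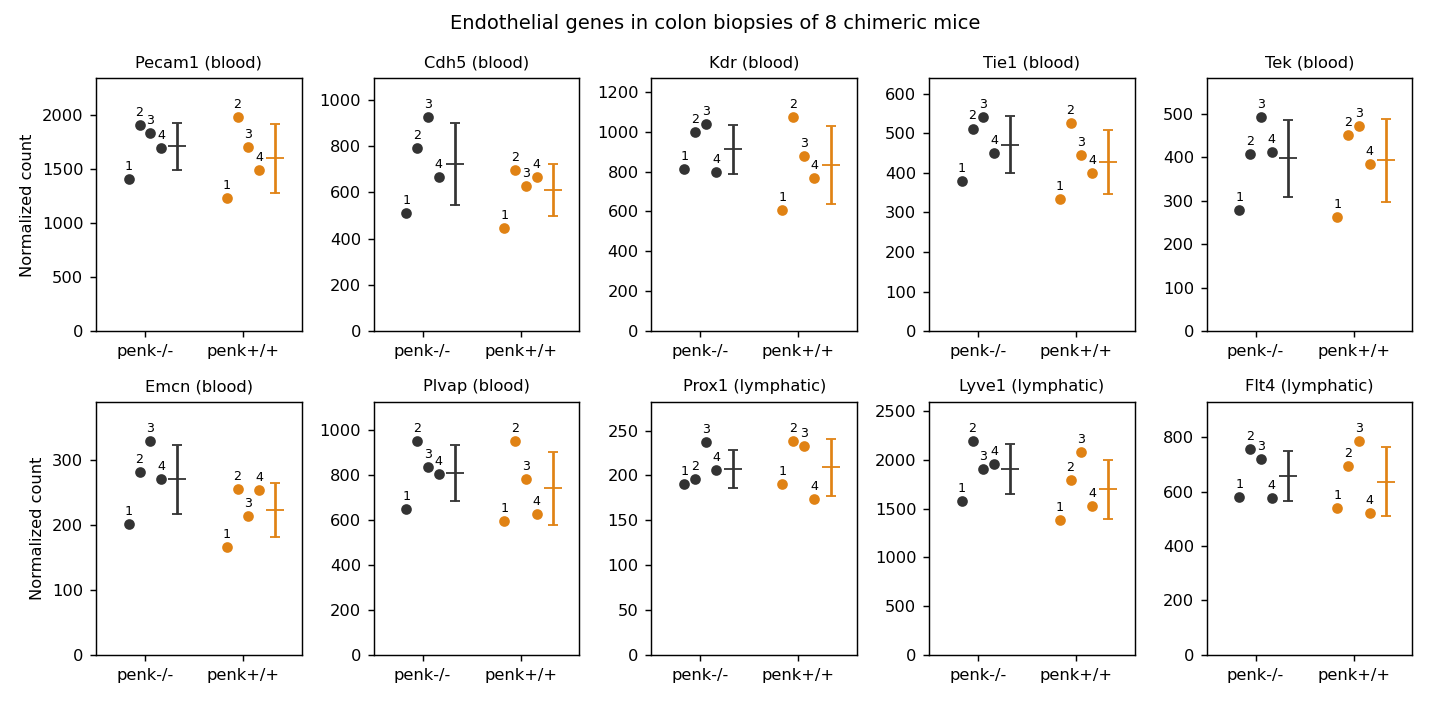
Normalized counts (vertical axis, from 0) of the 10 endothelial genes in penk-/- (dark) and penk+/+ (orange) chimeras, with 1 numbered point per mouse and the mean ± SD of each genotype (n = 4) beside the points. The genotypes overlap in every panel, and mouse 1 of penk+/+ is the lowest point for 8 of the 10 genes.

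Among the junction and surface genes of blood vessels, Pecam1 encodes CD31, an adhesion molecule at endothelial contacts (ENSMUSG00000020717, GRCm39 chromosome 11, 106543689 to 106641454, minus strand). Its normalized counts were 1405, 1904, 1829 and 1696 in penk-/- chimeras 1 to 4, and 1227, 1981, 1699 and 1489 in penk+/+ chimeras 1 to 4. Both the lowest and the highest mouse were penk+/+. The genotype means were 1708 ± 220 and 1599 ± 319 (SD, n = 4), and the fitted difference on the log2 scale was 0.11 with a 95% interval of -0.22 to 0.44 (limma, adjusted p = 0.863).

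Cdh5 encodes VE-cadherin, the cadherin of endothelial junctions (ENSMUSG00000031871, chromosome 8, 104828231 to 104871143, plus strand). It had 509, 792, 925 and 667 normalized counts in penk-/- and 447, 697, 628 and 667 in penk+/+ chimeras. Only penk-/- 2 and 3 exceeded every penk+/+ mouse, and penk-/- 1 was below 3 of the 4 penk+/+ mice. Its log2 fold change was 0.23 (-0.21 to 0.67, limma, adjusted p = 0.747). Without penk-/- 1 it was 0.39 with an unadjusted p of 0.0496 and an adjusted p of 0.430 (limma).

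Emcn encodes endomucin, a sialomucin of capillary and venous endothelium (ENSMUSG00000054690, chromosome 3, 137046794 to 137138999, plus strand). Its normalized counts were 201, 282, 330 and 271 in penk-/- and 167, 255, 215 and 255 in penk+/+ chimeras. Here 3 penk-/- mice were above all penk+/+ mice, while penk-/- 1 was lower than 3 of the 4. This was the largest fitted difference among the members, with means of 271 ± 53.2 and 223 ± 41.8 (SD, n = 4) and a log2 fold change of 0.28 (-0.13 to 0.69, limma, adjusted p = 0.666). An exact permutation test over the 70 assignments of the mice gave a two-sided p of 0.229. Leaving out penk-/- 1 gave 0.41, an unadjusted p of 0.0374 and an adjusted p of 0.405 (limma). Cdh5 and Emcn were the members with an unadjusted p under 0.05 without that library, 2 of 10, when 11.6% of all genes were under it.

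Plvap encodes the protein of the diaphragms that close the openings of fenestrated capillaries (ENSMUSG00000034845, chromosome 8, 71948674 to 71964506, minus strand). It had 649, 951, 838 and 804 normalized counts in penk-/- and 597, 954, 784 and 629 in penk+/+ chimeras. The highest mice of both genotypes were nearly equal. On the log2 scale the difference was 0.14 (-0.23 to 0.51, limma, adjusted p = 0.83). Gtpbp3 overlaps Plvap on the opposite strand, and the strand setting of the counting is not given in the sources used here.

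Of the receptors of blood endothelium, Kdr encodes VEGFR2, the main signalling receptor of VEGF-A (ENSMUSG00000062960, chromosome 5, 76093487 to 76139884, minus strand, with neither AGGAA nor TTCCT in the window shown above). It had 812, 998, 1038 and 797 normalized counts in penk-/- and 607, 1074, 879 and 767 in penk+/+ chimeras. The penk-/- values lay within the range of the penk+/+ values, for a log2 fold change of 0.15 (-0.22 to 0.53, limma, adjusted p = 0.819).

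Tie1 and Tek encode related receptor tyrosine kinases, the first an orphan receptor that modulates the second, which is the angiopoietin receptor Tie2. Tie1 (ENSMUSG00000033191, chromosome 4, 118328385 to 118347261, minus strand) had 380, 512, 541 and 451 normalized counts in penk-/- and 334, 527, 444 and 400 in penk+/+ chimeras. Tek (ENSMUSG00000006386, chromosome 4, 94627291 to 94763224, plus strand) had 278, 408, 492 and 411 in penk-/- and 263, 452, 472 and 383 in penk+/+ chimeras. In both genotypes mouse 1 was the lowest for both receptors. The log2 fold change of Tie1 was 0.15 (-0.20 to 0.50, limma, adjusted p = 0.805). That of Tek was 0.02 with the widest interval among the 10 genes (-0.46 to 0.51, limma, adjusted p = 0.986). The level of Tek per kilobase of exon relative to that of Tie1 was 0.698 ± 0.0741 in penk-/- and 0.764 ± 0.101 in penk+/+ chimeras (mean ± SD of 4 mice), with overlapping groups.

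For the lymphatic genes, Prox1 encodes the transcription factor that specifies lymphatic identity (ENSMUSG00000010175, chromosome 1, 189850232 to 189904637, minus strand). It had 191, 196, 238 and 206 normalized counts in penk-/- and 190, 239, 233 and 174 in penk+/+ chimeras. The order of the mice differed from that of the blood genes: penk+/+ 4 was the lowest. A log2 fold change of -0.0037 was fitted (-0.31 to 0.30, limma, adjusted p = 0.996), the smallest in size of the 10. Prox1os overlaps Prox1 on the opposite strand.

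Lyve1 encodes a hyaluronan receptor of lymphatic capillaries (ENSMUSG00000030787, chromosome 7, 110448585 to 110462460, minus strand). Its normalized counts were 1576, 2198, 1911 and 1961 in penk-/- and 1386, 1798, 2079 and 1532 in penk+/+ chimeras. Although the highest mouse was penk-/- and the lowest penk+/+, penk+/+ 3 was above 3 of the 4 penk-/- mice. The fitted log2 fold change was 0.18 (-0.13 to 0.49, limma, adjusted p = 0.724).

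Flt4 encodes VEGFR3, the receptor of VEGF-C and VEGF-D (ENSMUSG00000020357, chromosome 11, 49500090 to 49543582, plus strand). It had 580, 756, 718 and 577 normalized counts in penk-/- and 541, 693, 787 and 523 in penk+/+ chimeras. The penk-/- mice lay inside the range of the penk+/+ mice. On the log2 scale the difference was 0.06 (-0.28 to 0.40, limma, adjusted p = 0.936).

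Levels between genes were compared as normalized counts per kilobase of exon (summed length of all exons), over the 8 libraries. Lyve1 was first at 434 ± 68.4 (SD, n = 8), above Plvap at 202 ± 36.4 in each of the 8 libraries and with ranges that did not overlap. Pecam1 (165 ± 26.0), Cdh5 (152 ± 34.3), Kdr (94.7 ± 17.2), Tie1 (89.6 ± 14.9), Flt4 (78.4 ± 12.5), Tek (65.7 ± 14.1), Emcn (37.4 ± 7.76) and Prox1 (23.2 ± 2.78) followed. From Plvap downward, the range of each gene over the 8 libraries overlapped that of the next. This overlap leaves aside that both genes of a pair were measured in the same libraries. Within a library the order was steadier: Pecam1 was above Cdh5 in 6 libraries, Kdr above Tie1 in 6, Tie1 above Flt4 and Flt4 above Tek in 7, and the other neighbours kept their order in all 8. Dividing by the longest transcript instead placed Pecam1 at the second rank with 339, since its exons sum to 10002 bases but its longest transcript to 4875. It also placed Flt4 (103) above Tie1 (98.8), while Lyve1 stayed first and Prox1 last. The most and the least abundant of the 10 transcripts per length were therefore both lymphatic genes, and the level of Lyve1 relative to Prox1 was 19.98 ± 3.16 in penk-/- and 17.5 ± 1.83 in penk+/+ chimeras (mean ± SD of 4 mice), with overlapping groups.

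**Figure D2:**
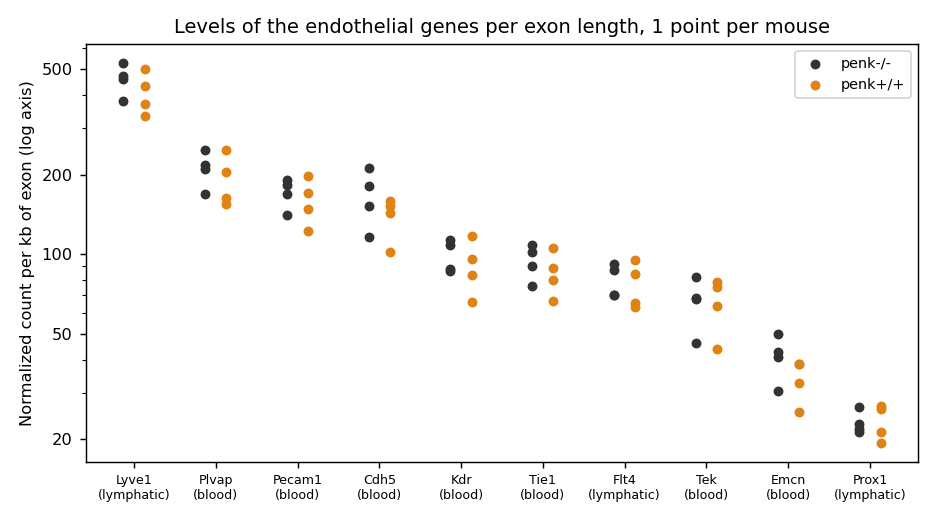
Levels of the 10 endothelial genes as normalized counts per kilobase of exon (vertical axis, log scale), ordered by their mean, with 1 point per mouse and the genotypes side by side. Lyve1 lies above all other genes, Prox1 is the lowest by mean, and the genotypes overlap for each gene.

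Lymphatic and blood genes were set against each other within each library. The comparison is of gene lists, and the vessel type that held each transcript was not measured. The mean of the 3 lymphatic genes minus the mean of the 7 blood genes, each gene being centred on its own log2 mean, was 0.12, -0.07, -0.15 and -0.06 in penk-/- chimeras 1 to 4, and 0.23, -0.11, 0.20 and -0.16 in penk+/+ chimeras 1 to 4. The means were -0.04 ± 0.11 and 0.04 ± 0.21 (SD, n = 4), a difference of -0.08 that is smaller than the SD of either genotype. The libraries with the lowest values, penk-/- 3 and penk+/+ 4, were the 2 with most Pbsn, and the part of that tissue in the difference was not tested. For the VEGF receptors, the level per kilobase of Flt4 relative to Kdr was 0.805 ± 0.0302 in penk-/- and 0.868 ± 0.149 in penk+/+ chimeras. The penk+/+ mice were the more spread, with 0.994 and 0.999 in mice 1 and 3 and 0.720 and 0.761 in mice 2 and 4, and the penk-/- mice lay between these pairs. Lyve1 relative to Pecam1 was 2.69 ± 0.125 and 2.58 ± 0.326, Prox1 relative to Cdh5 was 0.145 ± 0.0286 and 0.171 ± 0.0337, and Emcn relative to Plvap was 0.194 ± 0.0252 and 0.178 ± 0.0385 (penk-/- and penk+/+, SD, n = 4). These groups all overlapped.

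The mice of 1 genotype also differed from each other. The coefficient of variation ranged from 10.1% (Prox1) to 24.5% (Cdh5) among penk-/- and from 15.2% (Prox1) to 24.1% (Tek) among penk+/+ chimeras, and the highest mouse was 1.37 (Prox1) to 2.07 (Cdh5) times the lowest. Library penk+/+ 1 was the lowest of the 8 for 8 of the 10 genes, including all 7 blood genes, and was the lowest library for 17.2% of all genes. For Prox1 and Flt4 the lowest was penk+/+ 4. The highest library was penk-/- 3 for 4 genes, all of blood endothelium, penk+/+ 2 for 4, penk-/- 2 for Lyve1 and penk+/+ 3 for Flt4. For 5 of the 10 genes the 2 lowest libraries were the replicates numbered 1 of both genotypes, against 10.5% of all genes. The labels do not say that a number marks a shared cage, day or batch.

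Over the 8 libraries, Pearson's r between 2 blood genes had a median of 0.866 (0.682 to 0.976, 21 pairs), with a median Spearman's rho of 0.833. Between a blood and a lymphatic gene the median r was 0.695 (0.355 to 0.844, 21 pairs, median rho 0.619), and between 2 lymphatic genes 0.748 (0.546 to 0.83, 3 pairs, median rho 0.667). These coefficients are a description: all genes come from the same 8 libraries with their size factors, and the pairs share members.

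Marker scores of other tissues were compared with the endothelial genes across the libraries. The score of a marker list is the mean of its genes' log2 values, each centred on its own mean over the 8 libraries. The epithelium score was 0.24 in penk+/+ 1 and 0.14 in penk-/- 1, the 2 libraries with the lowest blood endothelial scores (-0.47 and -0.26), and it was -0.39 in penk-/- 3, the library with the highest (0.31). Correlations over the 8 mice of both genotypes were computed for 32 relations, with exact permutation tests over all 40320 pairings, two-sided, and adjustment over the 32. With the epithelium score, r ranged from -0.90 (Cdh5) to -0.49 (Prox1) and rho from -0.83 to -0.45, and 3 of the 10 relations had an adjusted exact p of r under 0.05 (Cdh5, Tie1 and Emcn). For Cdh5, r was -0.90 (exact p = 0.00255, adjusted p = 0.0148) and rho -0.79 (exact p = 0.0279, adjusted p = 0.0894).

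With the score of 5 fibroblast genes, r ranged from 0.67 (Prox1) to 0.94 (Pecam1), and 8 of the 10 relations had an adjusted exact p under 0.05, the exceptions being Prox1 and Flt4. For Emcn, rho was 0.93 (exact p = 0.00223, adjusted p = 0.0714). Its r fell from 0.82 to 0.34 when the 2 libraries with the most extreme fibroblast scores were left out. For Cdh5, r went from 0.86 to 0.46. The size of r thus depended on these 2 libraries for both genes, and rho without them was not computed. With the smooth muscle score, r ranged from 0.51 (Emcn) to 0.87 (Lyve1). The adjusted exact p of r was under 0.05 for Lyve1, Flt4 and Tek. Leaving out the 2 most extreme libraries of each score gave r from -0.90 to -0.49 for epithelium, from 0.39 to 0.92 for smooth muscle and from 0.34 to 0.85 for fibroblasts. None of the 32 Spearman coefficients had an adjusted p under 0.05. Without the 2 libraries with most Pbsn, r ranged from -0.96 to -0.23 for epithelium, from 0.46 to 0.86 for smooth muscle and from 0.59 to 0.95 for fibroblasts. Scores of several tissues in 1 library are not independent of each other, since normalized counts are relative to the whole library. The share of all genes with such relations to the epithelium, fibroblast or smooth muscle score was not computed. Whether the counts of relations are particular to the members was therefore not tested.

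**Figure D3:**
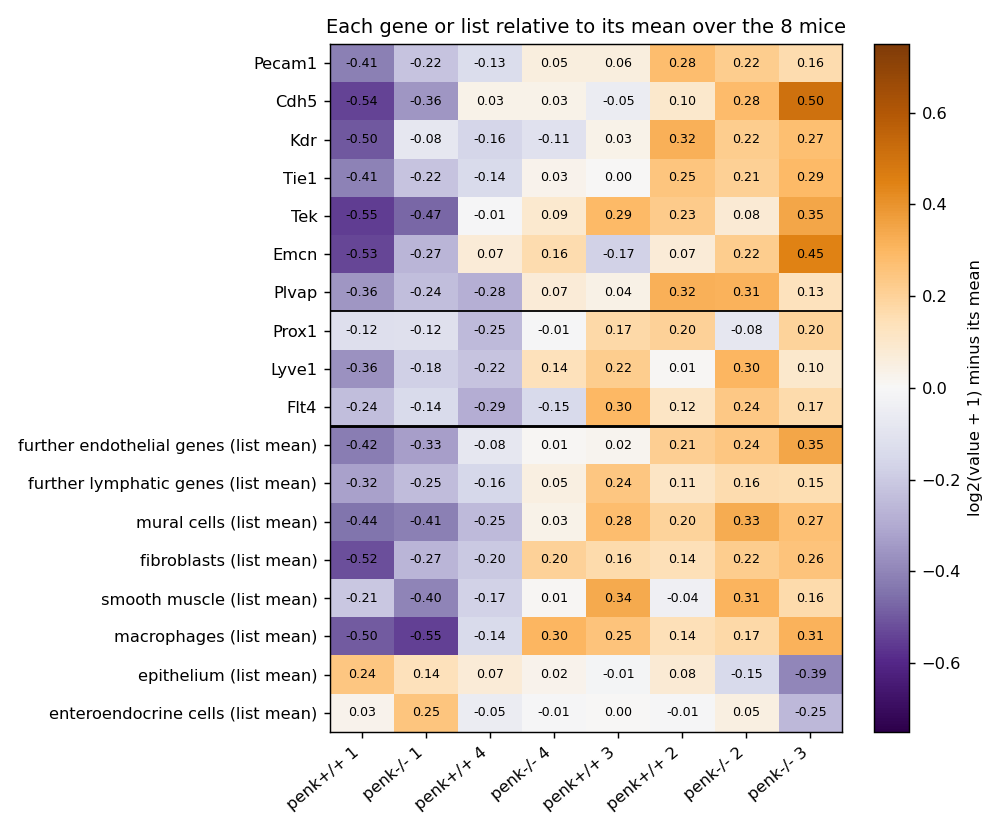
Each endothelial gene, and the mean of each marker list, as log2(value + 1) minus its mean over the 8 mice (colour and printed value), with the mice as columns ordered by the mean of the 10 genes. The blood genes and the fibroblast, mural cell and macrophage lists are below 0 in penk+/+ 1 and penk-/- 1, where the epithelium list is above 0.

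The genotype difference was also fitted with a covariate for each library, its smooth muscle score less its epithelium score. The 10 fitted values then lay between -0.15 (Tek) and 0.17 (Emcn), with unadjusted p from 0.302 to 0.933 (limma). Every member had a lower value than without the covariate, and Tek and Flt4 changed sign. The epithelium list itself was lower in penk-/- for all 6 of its genes (median -0.19) and the fibroblast list higher for all 5 (median 0.16), with 0 of these 11 genes at an unadjusted p under 0.05 in limma.

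**Figure D4:**
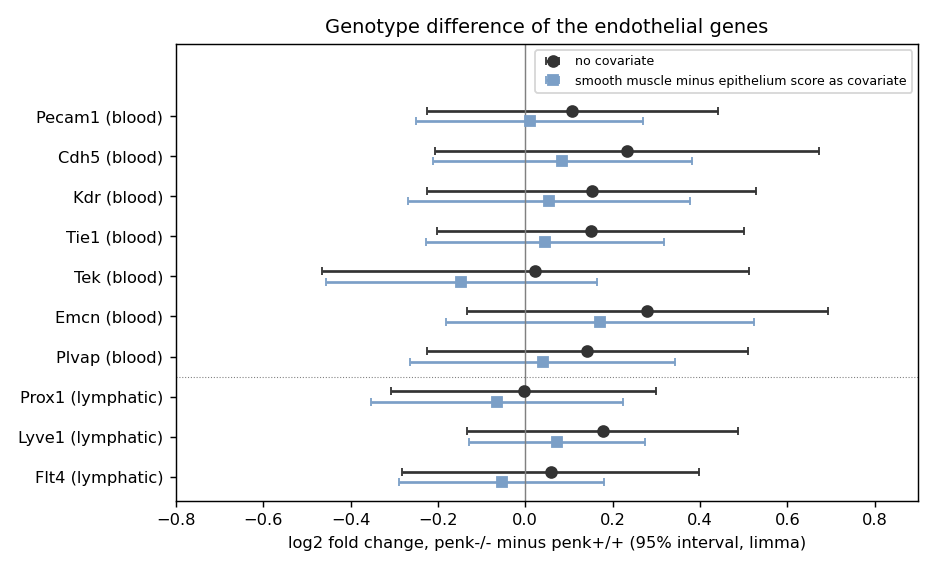
Log2 fold change (penk-/- minus penk+/+, horizontal axis) of the 10 endothelial genes with its 95% interval, from limma without a covariate (dark circles) and with the smooth muscle minus epithelium score of each library as covariate (blue squares). All 20 intervals include 0, and the values with the covariate lie to the left of those without.

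Cells other than endothelium that hold these transcripts were looked at through their markers. Lyve1 varied with the score of 7 macrophage genes over the 8 libraries (r = 0.86, exact permutation p = 0.00908, adjusted p = 0.0261, and rho = 0.69, exact p = 0.0694, adjusted p = 0.139). Without the 2 libraries with extreme macrophage scores, r was 0.77. The r of Lyve1 was higher with the fibroblast score (0.93) and the smooth muscle score (0.87). No other member was compared with the macrophage score, so whether this relation is particular to Lyve1 was not tested. The macrophage genes summed to 4172 to 6580 normalized counts in penk-/- and 3322 to 6337 in penk+/+ libraries, none at 0, with 5 higher and 2 lower in penk-/- (median 0.24) and 0 at an unadjusted p under 0.05 (limma). No relation of Prox1 with the score of 5 enteroendocrine genes was detected (r = -0.45, exact permutation p = 0.284, adjusted p = 0.284; rho = -0.29, exact p = 0.501, adjusted p = 0.501), and r was 0.17 without the 2 libraries with extreme enteroendocrine scores and -0.55 without the 2 with most Pbsn. These genes summed to 8733 to 12471 and 9705 to 10946, with 3 higher and 2 lower (median 0.0019, 0 at an unadjusted p under 0.05).

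Of 6 leukocyte and platelet genes, which matter for Pecam1, 4 could be tested, with 3 higher and 1 lower (median 0.21) and sums of 1211 to 1920 in penk-/- and 900 to 1855 in penk+/+ libraries. Pf4, a chemokine gene listed here with the platelet genes, had 347, 398, 414 and 338 normalized counts in penk-/- and 214, 327, 322 and 266 in penk+/+ chimeras. The groups of Pf4 thus did not overlap (5.63% of all genes). Its log2 fold change was 0.42 (0.09 to 0.75, limma, unadjusted p = 0.0177, adjusted p = 0.432), and the exact permutation test gave p = 0.0286, the smallest that 4 against 4 mice allow. The other platelet genes, Itga2b, Gp9 and Ppbp, had overlapping groups. Itga2b had a log2 fold change of -0.02. Gp9 and Ppbp were below the minimum and not tested, Gp9 being at 0 in some libraries. Their means in penk-/- and penk+/+ chimeras were 1.41 and 1.86 for Gp9 and 8.69 and 4.77 for Ppbp, against 374 and 282 for Pf4. The cells that held the Pf4 transcripts were not identified. The 4 hemoglobin genes of red blood cells had 1 higher and 3 lower (median -0.25) and sums of 329 to 781 and 371 to 746, and the 3 accessory gland genes 2 higher and 1 lower (median 0.03). None of these had an unadjusted p under 0.05. The part of these cells in the levels of the members was not tested.

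Further endothelial genes were taken from a list. Of 22 genes, among them Eng, Erg, Cldn5, Vwf and Flt1, 16 were higher and 6 lower in penk-/- (median 0.14), with 0 at an adjusted and 1 at an unadjusted p under 0.05 (limma). Among all genes tested 51.1% were higher and 9.63% had an unadjusted p under 0.05, so 1 of 22 is below that share. The gene was Nos3, the endothelial nitric oxide synthase, with 30.3, 61.8, 84.3 and 46.4 normalized counts in penk-/- and 29.9, 33.3, 26.6 and 37.7 in penk+/+ chimeras. The groups overlapped because of penk-/- 1, and the log2 fold change was 0.70 (0.03 to 1.37, limma, unadjusted p = 0.0414, adjusted p = 0.498). The next in size was Robo4, a receptor that stabilizes vessels, with 0.33 (-0.03 to 0.69, limma, adjusted p = 0.549).

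In the list of 8 further lymphatic genes, 7 could be tested, Foxc2 being below the minimum, with 5 higher and 2 lower (median 0.16) and 0 at an unadjusted p under 0.05. The largest in size was the chemokine gene Ccl21a, at -0.27 (-0.64 to 0.11, limma, adjusted p = 0.647). It has near-identical copies between which reads can be split. Pdpn, which encodes podoplanin, was at 0.18 (-0.13 to 0.50, limma, adjusted p = 0.713).

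Among 9 ligands and their processing enzymes, 7 were higher and 2 lower (median 0.15), and 1 of the 9, Vegfa, had an unadjusted p under 0.05 (limma), near the 9.63% of all genes, of which 51.1% were higher. Vegfa, which encodes the ligand of the receptors Kdr and Flt1, had 4635, 4772, 4810 and 4949 normalized counts in penk-/- and 5746, 4896, 5719 and 5737 in penk+/+ chimeras. A single mouse, penk+/+ 2, overlapped the penk-/- range. The log2 fold change was -0.20 (-0.35 to -0.06, limma, unadjusted p = 0.0122, adjusted p = 0.408), opposite in sign to that of Kdr. Apln, which encodes apelin, was at 0.28 (-0.13 to 0.69, adjusted p = 0.661), and Vegfc, the ligand of Flt4, at 0.24 (-0.06 to 0.54, limma, adjusted p = 0.613), with 284, 326, 326 and 305 normalized counts in penk-/- and 210, 285, 318 and 245 in penk+/+ chimeras.

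Of 6 leukocyte adhesion molecules 5 could be tested, Sele being below the minimum and at 0 in penk+/+ 1, and all 5 were higher (median 0.24) with 0 at an unadjusted p under 0.05 (limma). Madcam1, the mucosal addressin, was at 0.54 (-0.23 to 1.31, adjusted p = 0.659) on 12.4 to 44.6 normalized counts, and Selp, which encodes P-selectin, at 0.28 (-0.42 to 0.98, limma, adjusted p = 0.823). Arterial genes gave 4 higher and 2 lower of 6 (median 0.17, 0 at an unadjusted p under 0.05), led by the connexin gene Gja5 at 0.33 and the Notch ligand gene Dll4 at 0.20. Of 3 venous genes all were higher (median 0.25), with the apelin receptor gene Aplnr at 0.35 (-0.15 to 0.85, limma, adjusted p = 0.657). Beside each of these short lists, 51.1% of all genes tested were higher.

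Ephb4, which encodes the receptor of ephrin-B2 on veins, was the venous gene with an unadjusted p under 0.05. That is 1 of a list of only 3, when 9.63% of all genes were under it. It had 3929, 3969, 3461 and 3978 normalized counts in penk-/- and 2996, 3367, 3059 and 3527 in penk+/+ chimeras, overlapping by penk-/- 3 and penk+/+ 4, the libraries with most Pbsn. The log2 fold change was 0.25 (0.08 to 0.41, limma, unadjusted p = 0.0085, adjusted p = 0.388). Its level of 704 normalized counts per kilobase was above that of every member, and Vegfa was at 1200. Both are also expressed in cells outside vessels. Mural cells, which wrap vessels, gave 4 higher and 2 lower of 6 (median 0.12, 0 at an unadjusted p under 0.05), with Cspg4 at 0.29 and Notch3 at 0.22, and the 6 smooth muscle genes 3 higher and 3 lower (median 0.02, 0 at an unadjusted p under 0.05, limma).

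The genes whose pattern over the 8 libraries was most like that of the members were sought among 14734 genes with a mean of at least 50 normalized counts that belong to no list. For the mean of the 7 blood genes they were Itgb3 (r = 0.996), Fgd5 (0.990), Sema3f (0.983), Podn (0.982) and Prex1 (0.982), with Spearman's rho from 0.905 to 1.0. Itgb3 encodes integrin beta 3 and had 757 to 1329 normalized counts. It had the same order of the 8 mice as the mean of the blood genes, as had Fgd5 and Prex1. For the mean of the 3 lymphatic genes they were Gucy1a1 (0.991), Prkg1 (0.987), Mustn1 (0.986), Arsj (0.985) and Cdh11 (0.982), with rho from 0.905 to 0.976. Gucy1a1 encodes a subunit of the nitric oxide receptor guanylate cyclase and Prkg1 the kinase that cyclic GMP activates, and the lists of 5 genes had no gene in common. These are the highest of many coefficients over 8 mice, given without a test.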

How the data were processed

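RNA-seq was performed by the authors on frozen colonic biopsies of 4 penk-/- and 4 penk+/+ chimeras, with stranded poly-A paired-end libraries. Per the labels and the methods of the study, reads were checked with FastQC, aligned to GRCm39 and quantified with STAR 2.7.8a, and analysed with DESeq2 1.30.0. The deposited values are a signal per gene and mouse: read counts that the authors scaled by 1 size factor per library, neither raw counts nor log values. They were whole multiples of 1 read, within 0.1 read, for 100.0% of the values, which gave the depth. Genes are listed by Ensembl identifier, and 25776 of the 26008 identifiers were matched to names, positions and exon lengths in the GENCODE annotation of GRCm39.

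The genotype difference was tested with limma 3.58.1 (R 4.3.3, functions eBayes after lmFit, with a trend) on the log2 of the value + 1, for genes with a mean of at least 10, two-sided, with Benjamini-Hochberg adjustment over all genes tested. Fold changes are on that scale, penk-/- minus penk+/+. The mice are separate animals, and limma's p-values set the genotype difference against the spread between mice within a genotype. That spread is moderated with a trend over all genes tested. The members and gene lists were chosen with earlier results of these data known. All 10 members are named. Of the further lists, the genes named are those with an unadjusted p under 0.05, those whose groups do not overlap and the 2 with the largest change, and marker genes where their values stand beside a result. For likeness, the 5 genes with the highest r with each member mean are named. Promoter sequences are from RefSeq (GRCm38.p6). Alternatives were other pseudocounts (0.1 and 8), other filters on low values (none and 50), limma without trend, quantile normalization, a replicate block, the covariate, and leaving out each mouse or the 2 libraries with most Pbsn. Weights for libraries were added after seeing the data. Scores, exact permutation tests and figures used Python 3.11.15 with scipy 1.17.1, numpy 2.4.6, matplotlib 3.10.9 and pandas 2.3.3.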

Additional observations from a re-analysis of the deposited data

How the results depend on the processing

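No member had an adjusted p under 0.05 under any of the 18 alternatives. The number at an unadjusted p under 0.05 was 0 except when 1 mouse was left out, where it ranged from 0 to 2 (Cdh5 and Emcn, without penk-/- 1). Among all genes, the count at an adjusted p under 0.05, 0 at first, was 2 with library weights (chosen after seeing the data), 1 with quantile normalization, 1 with the covariate, and 0 to 6 when 1 mouse was left out (6 without penk-/- 1). At an unadjusted p under 0.05 it ranged from 1379 to 2938. With the replicate block it was 1 at an adjusted p under 0.05 and 2938 unadjusted, with 0 members. Same-numbered mice deviated from their group means with correlations of 0.15, -0.04, -0.32 and -0.16, and 1 of 8 libraries was closest to its own number in the other genotype, so the numbers were not taken as pairs.

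The median of the blood genes stayed above 0, from 0.03 to 0.27 over the 18 alternatives, and that of the lymphatic genes ran from -0.08 to 0.17. Among single genes, Cdh5, Tie1, Emcn, Plvap and Lyve1 kept their sign throughout. Others turned: Kdr was at -0.037 with library weights. Tek was at -0.062 with library weights, -5.57e-05 with quantile normalization, -0.15 with the covariate and -0.089 without the 2 libraries with most Pbsn. Flt4 was at -0.043, -0.053 and -0.075 with weights, with the covariate and without those 2 libraries. When 1 mouse was left out, Pecam1 ranged from -0.012 to 0.22, Tek from -0.16 to 0.18, Prox1 from -0.087 to 0.064 and Flt4 from -0.029 to 0.17. The cause was not tested. By the longest transcript, the levels per kilobase of Pecam1 (339), Kdr (144), Flt4 (103) and Emcn (68.5) were over 1 SD above those by summed exons. The planned tests on recovered read counts were not run. With 4 mice per genotype the intervals of single genes do not show that the genotypes are alike.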
